A study of Mus musculus with 2 samples.

Results

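Levels of 10 genes of apoptotic cell uptake were read in microglia of sham-operated mice, as 10 of the 53801 genes in the deposited counts. They were chosen by name and not by a cut on a measured value, though earlier results of these data were known. They are the receptor tyrosine kinases Mertk, Axl and Tyro3 (the TAM receptors), their ligands Gas6 and Pros1, and the bridging protein gene Mfge8. The others are the scavenger receptor genes Stab1, Cd36 and Msr1, and the engulfment adaptor gene Elmo1. Each symbol was found once in the GRCm38 annotation (GENCODE M21). The study set microglia after transient middle cerebral artery occlusion (MCAO) beside sham microglia. Here 2 sham libraries were used, and the MCAO arm was not analysed here. Both libraries came from hemizygous Cx3cr1(CreER/wt) mice on the C57BL/6 background, in which one Cx3cr1 allele drives a tamoxifen-inducible Cre recombinase. The mice served as controls for conditional knockout mice, so both carried the Cre allele and both had received tamoxifen at 75 mg/kg daily for 4 days. Surgery followed 14 days after the first injection, in male mice of 8 to 10 weeks per the labels, while the study's methods give an older range and both sexes. The left hemisphere of 1 mouse per library was taken 3 days after sham surgery, and CD11c–Ly6G–CD11b+CD45low cells were sorted. With a single group the design has no contrast, so the values below are levels in each library with the spread between 2 mice, and no test of a condition was run.

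Clearance of dying cells, or efferocytosis, begins when a phagocyte recognizes phosphatidylserine on the outer membrane of the target. Gas6 and protein S, the product of Pros1, bind this lipid through vitamin K-dependent Gla domains and present it to TAM receptors, whereas MFG-E8 links it to αv integrins. Stabilin-1, CD36 and the scavenger receptor SR-A, encoded by Msr1, bind phosphatidylserine or modified lipids and proteins, and ELMO1 acts with DOCK proteins to activate Rac and extend the phagocytic cup. In the brain, microglia are the main professional phagocytes, and Mertk and Axl are the TAM receptors best known in these cells.

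Library 1 held 23381026 counts on genes and library 2 held 41142609, so 1 count was worth 0.0428 and 0.0243 CPM (counts per 1000000 counts on genes). At an equal CPM the counting error was smaller in library 2. Relative to its level, a gene with fewer counts in library 2 had the larger counting error there. Pairs of values below give library 1 first. The 10 microglia marker genes, Tmem119 and P2ry12 among them, were counted in both libraries and summed to 37256 and 42550 CPM. The 12 neutrophil marker genes summed to 4357 and 59249 CPM, all 12 more than 2-fold higher in library 2. In such bulk samples, fewer cells of a type and less RNA per cell cannot be told apart. Counting intervals below cover counting error only, because amplified reads without molecular identifiers are not independent molecules.

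The 250 bases before the RefSeq start of Mertk, Axl, Gas6 and Pros1 (GRCm38.p6) are shown because these receptors and ligands are the leading TAM genes below and their windows hold no annotated exon. Matches on either strand to GAGGAA, a core bound by the macrophage factor PU.1, or to TTCNNNGAA, the element bound by STAT dimers, are in capitals. The windows are chr2:128698665-128698914 (plus strand) for Mertk, chr7:25788734-25788983 (minus strand) for Axl, chr8:13494536-13494785 (minus strand) for Gas6 and chr16:62854057-62854306 (plus strand) for Pros1.
Mertk: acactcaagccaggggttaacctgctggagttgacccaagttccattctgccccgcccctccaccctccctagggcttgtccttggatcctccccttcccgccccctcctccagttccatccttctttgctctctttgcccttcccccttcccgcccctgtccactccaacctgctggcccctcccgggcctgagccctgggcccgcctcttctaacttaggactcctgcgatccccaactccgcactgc
Axl: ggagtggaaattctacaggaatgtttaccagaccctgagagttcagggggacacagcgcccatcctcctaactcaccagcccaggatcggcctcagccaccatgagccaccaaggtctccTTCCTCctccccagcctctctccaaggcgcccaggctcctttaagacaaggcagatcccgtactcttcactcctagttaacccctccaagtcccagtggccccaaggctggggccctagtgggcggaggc
Gas6: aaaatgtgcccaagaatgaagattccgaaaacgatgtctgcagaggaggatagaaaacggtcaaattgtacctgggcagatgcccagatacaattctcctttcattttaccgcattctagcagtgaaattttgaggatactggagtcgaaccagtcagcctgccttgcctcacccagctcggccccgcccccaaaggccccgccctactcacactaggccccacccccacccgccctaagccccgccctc
Pros1: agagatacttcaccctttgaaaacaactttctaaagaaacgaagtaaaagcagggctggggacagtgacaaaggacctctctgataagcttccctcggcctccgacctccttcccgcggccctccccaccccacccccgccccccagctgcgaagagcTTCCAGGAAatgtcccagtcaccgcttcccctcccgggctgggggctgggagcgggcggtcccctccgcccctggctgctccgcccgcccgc

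Axl held 1 match to GAGGAA, 130 bases before the start, and Pros1 held 1 match to TTCNNNGAA, 92 bases before the start. Mertk and Gas6 held neither. Of 32536 such windows of the genome, 23.4% held GAGGAA and 7.04% held TTCNNNGAA. The GC box GGGCGG, present in 33.0% of windows, was found 3 times for Mertk, once for Axl, 4 times for Gas6 and 5 times for Pros1. TATAAA was in none of the 4 windows and in 12.3% of all. Of the 10 genes, 9 had a window in the table, and Msr1 had none. These matches describe letters and not binding.

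Mertk was the leading TAM receptor in both sham libraries, Axl was lower and Tyro3 was close to the limit of detection. Mertk (chromosome 2 of GRCm38, 128698956 to 128802894, plus strand, 19 exons in its longest transcript), a receptor for Gas6 and protein S, had 13727 counts in library 1 and 8506 in library 2. These are 587 and 207 CPM, or 397 ± 269 CPM (SD, n = 2). Library 1 was 2.84-fold above library 2. Axl (chromosome 7, 25757273 to 25788705, minus strand, 20 exons), which binds Gas6 with high affinity, had 1935 and 930 counts. Its level was 82.8 and 22.6 CPM, or 52.7 ± 42.5 CPM (SD, n = 2), again with the higher value in library 1. Tyro3 (chromosome 2, 119797733 to 119818104, plus strand, 20 exons), the TAM receptor best known from neurons, had 12 counts in library 1 and 10 in library 2. Its CPM was 0.513 (95% exact Poisson interval 0.265 to 0.897) and 0.243 (0.117 to 0.447), intervals that overlap, so no difference between the libraries was detectable at this depth.

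**Figure D1:**
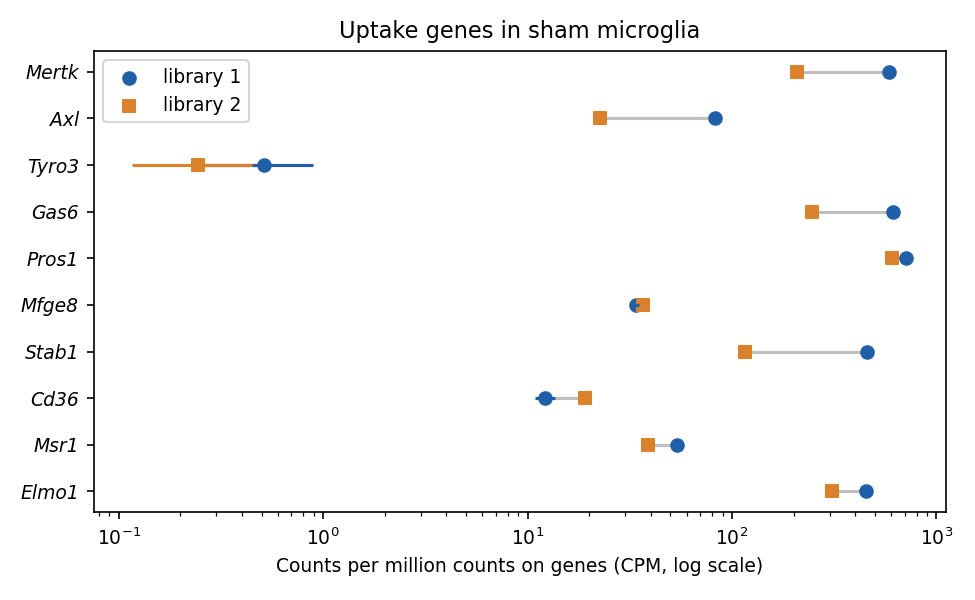
Level of each of the 10 genes in sham library 1 (blue circles) and sham library 2 (orange squares), in CPM on a log axis. Coloured bars are 95% exact Poisson intervals and grey lines join the libraries. Tyro3 lies below 1 CPM in both libraries, the other 9 genes lie between 12.2 and 711 CPM, and Mertk, Axl, Gas6 and Stab1 show the widest gaps between the libraries.

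The order of the TAM receptors was the same in each mouse. Per length, that is counts divided by the merged exon length of the gene and scaled to sum to 1000000 in each library, a unit written p.m. below, Mertk was at 385 and 109 p.m., Axl at 46.8 and 10.3, and Tyro3 at 0.236 and 0.0899. The ranges of the 3 receptors over the libraries did not overlap. Mertk was 8.23 times Axl in library 1 and 10.6 times Axl in library 2, and it made up 89.1% and 91.3% of the summed level of the 3 receptors. Of all genes, 13445 reached 10 counts in each library and are called counted genes here. Among them the mean level of Mertk per length lay at the 96.3rd percentile, that of Axl at the 72.3rd and that of Tyro3 at the 0.312th. By library, the percentiles were 97.5 and 92.0 for Mertk, 78.7 and 57.7 for Axl and 0.692 and 0.275 for Tyro3.

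Both TAM ligand genes were abundant in the same sorted cells. Pros1 (chromosome 16, 62854307 to 62929346, plus strand, 15 exons), the gene of protein S, also an anticoagulant of plasma, had 16614 and 25076 counts. Its CPM was 711 and 609, or 660 ± 71.5 CPM (SD, n = 2), the highest mean CPM of the 10 genes. Gas6 (chromosome 8, 13465374 to 13494490, minus strand, 15 exons) had 14309 and 10080 counts. Its CPM was 612 and 245, or 428 ± 260 CPM (SD, n = 2), 2.50-fold higher in library 1. In CPM, Pros1 was above Gas6 in both libraries. Per merged exon length the libraries did not share an order: Pros1 was 0.724 times Gas6 in library 1 and 1.55 times Gas6 in library 2. Scaled by coding length in place of exon length, the ratio was 1.70 as the geometric mean of the libraries. Gas6 had 683 and 220 p.m. and Pros1 494 and 342, and their ranges overlapped. The 2 ligands together took 62.2% of the summed level of the 10 genes per length in library 1 and 69.6% in library 2.

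Mfge8, which encodes the bridge to αv integrins, was low beside the TAM ligands and close between the mice, at 20.6 and 17.9 p.m. per length. Mfge8 (chromosome 7, 79133768 to 79149060, minus strand, 6 exons) had 793 and 1511 counts, or 33.9 and 36.7 CPM. Its mean was 35.3 ± 1.99 CPM (SD, n = 2). The integrin subunit genes of its receptors were counted too, with Itgav at 149 and 35.3 CPM, Itgb3 at 71.5 and 22.8 CPM and Itgb5 at 418 and 227 CPM. All 3 were higher in library 1, where the median log2 ratio of library 2 over library 1 was −0.26 for all counted genes. After the adjustment for GC content and transcript length described below, their log2 ratios were −1.26, −0.41 and −0.07. Mfge8 was slightly higher in library 2 in CPM and slightly higher in library 1 per length or scaled to the microglia markers.

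Among the scavenger receptors, Stab1 was highest in both libraries per length, and its lead differed between them. Stab1 (chromosome 14, 31139013 to 31168641, minus strand, 69 exons), whose product stabilin-1 binds phosphatidylserine directly, had 10644 and 4777 counts. Its CPM was 455 and 116, or 286 ± 240 CPM (SD, n = 2), a 3.92-fold gap and the widest of the 10 genes. Msr1 (chromosome 8, 39581685 to 39642673, minus strand, 9 exons), the gene of SR-A, had 1264 and 1605 counts, or 54.1 and 39.0 CPM. Cd36 (chromosome 5, 17781690 to 17888801, minus strand, 15 exons), a receptor for oxidized lipids and fatty acids, had 285 and 783 counts, or 12.2 and 19.0 CPM, the largest excess in library 2 among the 10 genes. Per length, Stab1 was 5.19 times Msr1 in library 1 and 1.84 times in library 2, and 13.03 and 2.13 times Cd36. Scaled by coding length in place of exon length, the ratio of Stab1 to Msr1 turned to 0.892 as the geometric mean of the libraries.

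Elmo1 (chromosome 13, 20090596 to 20608353, plus strand, 22 exons), the adaptor of the DOCK exchange factors, had 10569 and 12627 counts. Its CPM was 452 and 307, or 379 ± 103 CPM (SD, n = 2). It has the longest span of the 10 genes, 517758 bases, of which merged exons cover 2.43%. Its relatives Elmo2, at 68.0 and 23.6 p.m. per length, and Elmo3, at 0.524 and 0.448 p.m., were lower than Elmo1, at 102 and 55.9 p.m. Of the Rac exchange factors that ELMO proteins bind, Dock2, the form of blood cells, had 248 and 91.2 CPM and Dock1 27.7 and 8.73 CPM.

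Ordered by mean level per length, the genes ran from Gas6 (452 ± 327 p.m., SD, n = 2) over Pros1 (418 ± 108), Mertk (247 ± 195), Elmo1 (79.1 ± 32.7), Stab1 (75.9 ± 70.7), Axl (28.5 ± 25.8), Mfge8 (19.2 ± 1.85), Msr1 (19.2 ± 7.17) and Cd36 (10.9 ± 1.76) to Tyro3 (0.163 ± 0.103). Neighbours in this order had separate ranges at 3 steps only, between Mertk and Elmo1, between Msr1 and Cd36 and between Cd36 and Tyro3. The median level per length of all counted genes was 12.3 p.m. in library 1 and 6.83 p.m. in library 2. The SDs and ranges of single genes therefore also hold this common shift, and not only the spread of each gene. The ranges of the other neighbours overlapped. Within each library, Pros1 was nonetheless above Mertk and Stab1 above Axl, whereas Gas6 and Pros1, Elmo1 and Stab1, Axl and Mfge8, and Mfge8 and Msr1 changed order between the libraries. Mertk held rank 3 and Tyro3 rank 10 in each library, whereas Axl held rank 6 in library 1 and rank 9 in library 2. With the longest transcript or the longest coding sequence as the length, Pros1 came first, and with the latter Elmo1 passed Mertk.

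Other genes of the pathway, 88 in 7 lists, placed these levels. Of them 72 were counted. All 10 uptake genes passed that minimum, against 25% of all genes listed. The complement genes C1qb, C1qc and C1qa, whose products opsonize dying cells, were the highest of the bridges at 26997 ± 5990, 11904 ± 1506 and 9044 ± 3879 p.m. per length (SD, n = 2), all above Gas6 and Pros1. Of the 12 bridge genes, 7 were counted. Apoh and Ptx3 had no counts, and Tub had 2 counts in library 1 and 0 in library 2. Among the 17 other apoptotic cell receptors, Cd14, Trem2 and Havcr2, which encodes TIM-3, led with 1445 ± 267, 808 ± 10.9 and 363 ± 9.36 p.m. per length, each above Mertk in its mean. Havcr1 had no counts, Adgrb1 had 0 and 2, Stab2 4 and 0 and Megf10 1 and 0, so these receptors were at or near the limit of detection.

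**Figure D2:**
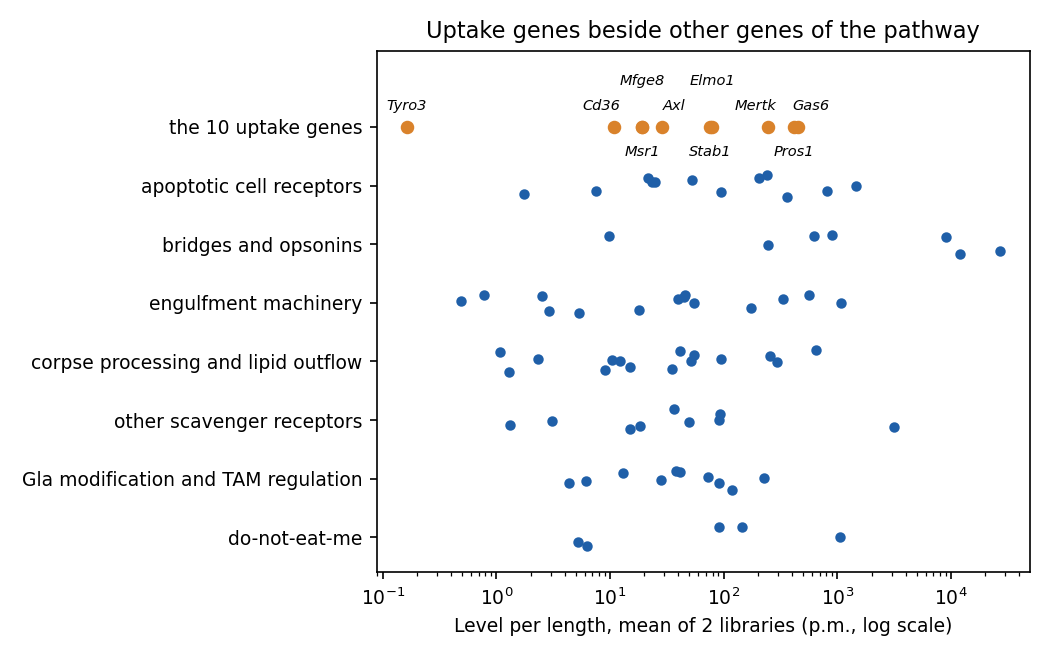
Mean level per length of the 2 sham libraries (p.m., log axis) for the 10 uptake genes (orange, named) and for the counted genes of 7 lists of the pathway (blue, 1 point a gene, spread vertically for sight only). Gas6, Pros1 and Mertk sit in the upper part of the lists, the C1q genes are the 3 points farthest to the right, and Tyro3 is the point farthest to the left.

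Engulfment genes were led by Rhog (1071 ± 71.5 p.m. per length), Rac2 (565 ± 176) and Vav1 (333 ± 118), which act upstream of or as Rac GTPases, and 14 of 16 were counted. Rac1 itself had 525 and 31.1 CPM. All 15 genes of corpse processing and lipid outflow were counted, with Lamp1 (646 ± 785), Ucp2 (297 ± 97.8) and Rab7 (254 ± 33.7) highest, and Lamp1 had 1130 CPM in one library and 107 CPM in the other. Of 12 other scavenger receptors, 9 were counted. The lysosomal glycoprotein gene Cd68 led them at 3165 ± 435 p.m. per length, followed by Scarb2 (92.5 ± 13.1) and Cxcl16 (91.6 ± 4.50), and Marco and Scara5 had no counts. Genes of the enzymes that make Gla residues on Gas6 and protein S were counted, as RNA only. Ggcx, the carboxylase gene, had 37.7 and 33.2 CPM, and Vkorc1, whose product recycles vitamin K, had 11.8 and 13.1 CPM. In that list of 11 genes, 10 were counted, Socs3 (224 ± 190), Adam10 (119 ± 104) and Grb2 (90.3 ± 88.5) were highest per length, and Twist1 had no counts. The protease gene Adam17, whose product sheds MERTK from the surface, had 273 and 114 CPM. The 5 genes of inhibitory signals to phagocytes were counted, led by Sirpa (1050 ± 863), Cd47 (144 ± 8.74) and Cd24a (90.1 ± 108). Of these, Sirpa was at 1660 and 440 p.m. per length, and Cd24a was at 13.9 and 166 p.m., so its mean came mostly from library 2.

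The 10 uptake genes did not move together between the mice. Mertk, Axl, Tyro3, Gas6 and Stab1 were more than 2-fold lower in library 2, 5 of 10, where 25.9% of the 13445 counted genes were more than 2-fold lower. The counting intervals of Tyro3 overlapped, and it was within 2-fold with TMM library sizes. None of the 10 was more than 2-fold higher, where 5.74% of the counted genes were. The median log2 ratio of library 2 over library 1 was −0.82 for the 10 genes and −0.26 for all counted genes. The log2 ratios ran from −1.97 for Stab1 and −1.87 for Axl over −1.51 for Mertk, −1.32 for Gas6 and −1.08 for Tyro3 to −0.56 for Elmo1, −0.47 for Msr1, −0.22 for Pros1, 0.11 for Mfge8 and 0.64 for Cd36. Of the 72 counted genes of the 7 pathway lists, 27 were more than 2-fold lower in library 2 and 5 higher, with a median of −0.43. Engulfment machinery had 8 of 14 counted genes lower and none higher, at a median of −1.10, and the other apoptotic cell receptors 3 of 12 lower and 2 higher, at 0.17. Corpse processing and lipid outflow had 6 of 15 lower, Gla modification and TAM regulation 5 of 10 and the other scavenger receptors 3 of 9, all with none higher. Bridges and opsonins had 1 lower and 2 higher of 7, and the inhibitory signals 1 lower and 1 higher of 5. The ratio of Stab1 lay at the 7.21st percentile of counted genes and that of Cd36 at the 89.0th. With TMM library sizes Pros1 turned to 0.01, with DESeq2 size factors it was 0.05, and with levels scaled to the microglia markers Mfge8 turned to −0.08.

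Transcript length and GC content moved with these ratios. Among counted genes, those with a longest transcript of at least 4971 bases had a median log2 ratio of −1.004, and those of 1657 to 2641 bases had 0.10. In the bin of genes with the highest GC content of 5 equal bins, from 54.9%, the median was −0.52, and in the lowest bin it was −0.11. Stab1, with 7999 bases and 57.3% GC, shared its bin of GC and length with genes whose median was −1.98, so its ratio after subtracting that median was 0.013. The adjusted ratios were −0.58 for Mertk, −0.33 for Axl, 0.24 for Tyro3 and 0.42 for Elmo1, the latter both with the sign turned. Gas6, with 2548 bases and 56.6% GC, kept a ratio of −1.20 after the same step, since the median of its bin was −0.12. Cd36, at 38.4% GC, was at 0.63. Of the 10 genes, 1 was then more than 2-fold lower and 0 more than 2-fold higher, beside 12.7% and 9.70% of 13439 genes. For the 72 pathway genes, the same adjustment, chosen for them after seeing the data, left 12 more than 2-fold lower and 9 higher, at a median of −0.04. Engulfment machinery then had 2 genes lower, Rac1 at −3.61 and Ptk2 at −1.35, and 1 higher, Rac2 at 1.14, at a median of −0.13. The part of length and GC content in the levels of either library was not tested.

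**Figure D3:**
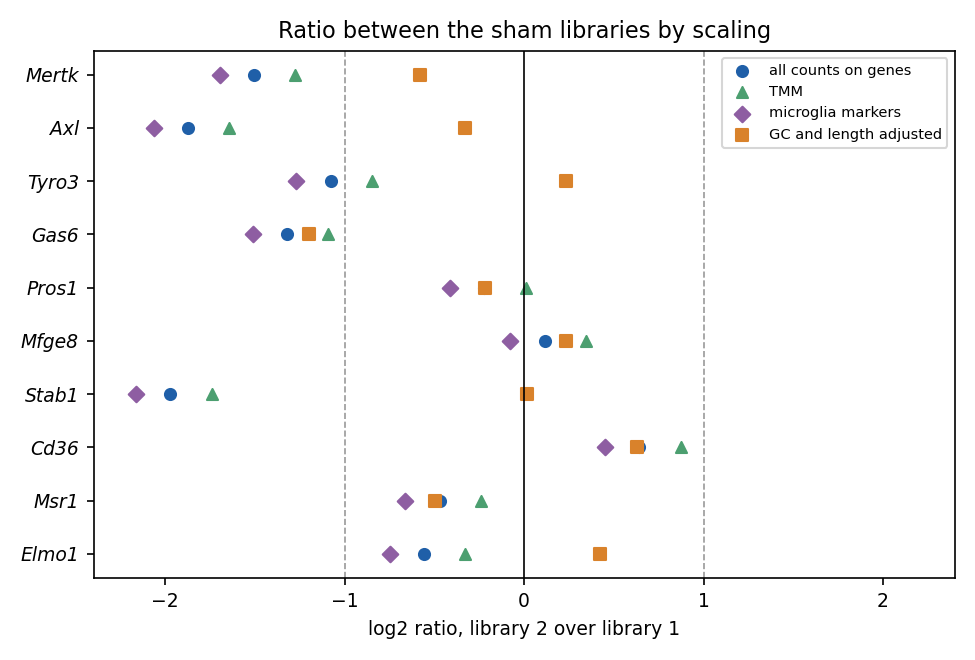
log2 ratio of library 2 over library 1 for each uptake gene when scaled by all counts on genes (blue circles), by TMM (green triangles), by the summed microglia markers (purple diamonds) and after adjustment for GC content and transcript length (orange squares). Dashed lines mark 2-fold. Gas6 stays left of the dashed line at −1 in all 4, whereas Stab1 goes from −1.97 to 0.013 with the adjustment.

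**Figure D4:**
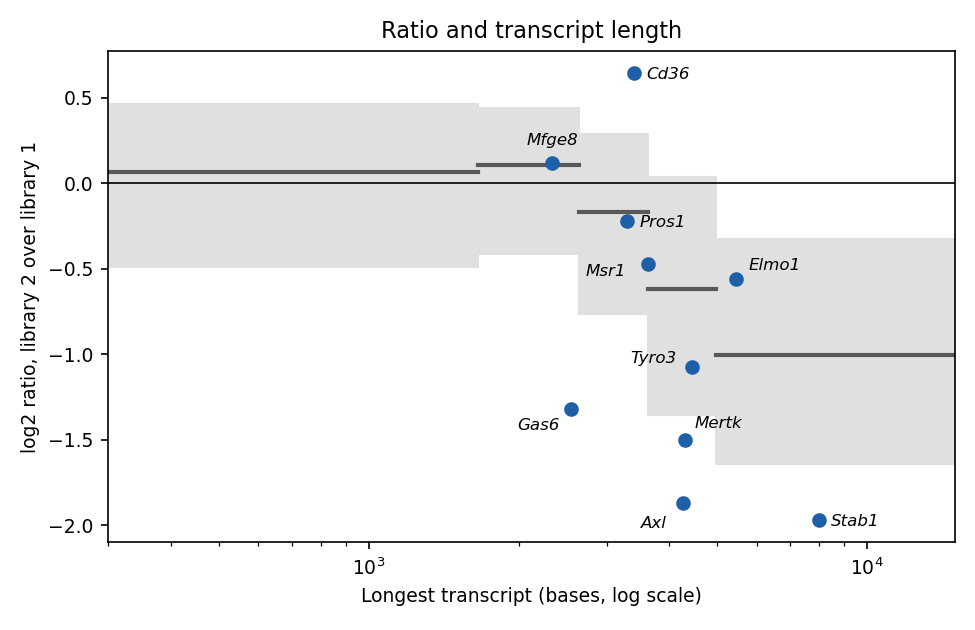
log2 ratio of library 2 over library 1 against the length of the longest transcript (bases, log axis) for the 10 uptake genes (blue points). Black bars and grey boxes are the median and the quartiles of counted genes in each of 5 equal bins of transcript length, drawn only within the limits of the axis. The medians run from 0.063 in the bin of shortest transcripts to −1.004 in that of the longest, Stab1, Axl, Mertk and Gas6 lie below the box of their bin, and Cd36 lies above its box.

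Genes of other cells that can express these receptors and ligands were read from the same libraries. The 10 border macrophage markers were all counted and summed to 777 and 364 CPM, and 4 of them (Mrc1, Cd163, F13a1 and Siglec1) were more than 2-fold lower in library 2, where 25.9% of counted genes were. Of the other 6, Lyve1, Pf4, Cbr2 and Clec10a had log2 ratios of −0.41, −0.31, −0.23 and −0.34, and Ms4a7 and Folr2 had 0.32 and 0.54. After adjustment for GC content and length the 4 stayed more than 2-fold lower, from −1.63 for Mrc1 to −1.24 for Cd163. After this step 12.7% of counted genes were more than 2-fold lower. Of the uptake genes, Gas6 also stayed more than 2-fold lower, at −1.20, whereas Stab1, Mertk, Axl and Tyro3 did not. Astrocyte markers, of which 7 of 9 were counted, summed to 235 and 193 CPM, with 219 and 169 CPM from Slc1a3 and no more than 1.15 CPM from Gfap. Endothelial markers summed to 23.2 and 17.6 CPM with Esam at 0 and Cldn5 at 1 count in each library, and neuron markers to 4.11 and 4.98 CPM. Pericyte or smooth muscle markers summed to 1.80 and 9.04 CPM with Myh11 at 0, and oligodendrocyte markers to 235 and 242 CPM with Pdgfra at 0. Platelet or megakaryocyte markers were at 45.3 and 62.6 CPM, mostly from Gp9, and dendritic cell markers at 94.7 and 80.2 CPM. Monocyte markers summed to 762 and 3527 CPM, of which Chil3 gave 455 and 2901 CPM. Of these 7 genes, 3 were more than 2-fold higher in library 2 and 1, Fn1, more than 2-fold lower, at a median log2 ratio of 0.23. Choroid plexus markers summed to 45.4 and 587 CPM, with 5 of 6 counted genes more than 2-fold higher in library 2. Of all counted genes, 5.74% were more than 2-fold higher. The part of such cells in the levels of the uptake genes was not tested.

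Patterns like those of 3 of the genes were read over the 11501 counted protein-coding genes, by the distance between genes in the plane of log2 CPM of both libraries. Nearest to Pros1 were Lamp2 (distance 0.072, 677 and 605 CPM) and Fermt3 (0.094). Nearest to Stab1 were Tln1 (0.056, 469 and 113 CPM) and Il4ra (0.15). Nearest to Cd36 were Zfp414 (0.033, 12.4 and 19.2 CPM) and Emc9 (0.040). Each likeness rests on 2 libraries. No typical distance between nearest genes was computed, so closeness beyond that of other genes was not tested.

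Reads of overlapping genes could touch few of these values. Exons of 7 of the 10 genes overlapped no exon of another annotated gene. Gas6 shared 34 exon bases with Tmem255b, which had 1 and 2 counts, Stab1 shared 112 with Nt5dc2 (863 and 749 counts) and Elmo1 shared 403 with Gm32036 (267 and 266 counts), each on the opposite strand. Whether the counting used strand is not given in the sources used here.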

How the data were processed

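Total RNA of sorted microglia was copied with the SMART-Seq HT Kit, which primes on poly(A) tails, and sequenced in paired 75-base reads per the study's methods. The authors mapped reads to GRCm38 with HISAT2 and deposited raw HTSeq counts per Ensembl gene, not normalized. Versions, annotation release and strand setting are not given in the sources used here. Of 53801 genes, 53706 matched a symbol in GENCODE M21, and deposited starts were shifted to count from 1. CPM was the count divided by the library total, scaled to 1000000. Levels per length used merged exons. The minimum for a counted gene was 10 in each library. A count of 0 allows 0.128 and 0.0729 CPM (3 counts). The adjustment subtracted the median of counted genes in the same of 10 bins of GC content and 10 of longest transcript. A bin with under 20 genes used GC alone. The step was run on ratios simulated from GC content and length themselves, which checks the computation and not whether it suits these data. Scaling alternatives came from edgeR 4.0.16 and DESeq2 1.42.0 in R 4.3.3, the rest from scipy 1.17.1 and pandas 2.3.3 under Python 3.11.15. The 10 genes and all lists were chosen with earlier results of these data known. Named genes were the 10, the 3 highest per length of each pathway list, those under 10 counts in both libraries (1 is not reported here), marker genes at 0 in both, and the 2 nearest genes of 3 members. Rac1, Ptk2, Adam17, Ggcx, Vkorc1, Elmo2, Elmo3, Dock1, Dock2, the integrin genes and the other marker genes were named after their values were seen. No batch is labelled.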

Additional observations from a re-analysis of the deposited data

How the results depend on the processing

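No paired analysis was possible because both libraries belong to 1 group. A spread from 2 mice limits every level, and leaving out one of 2 libraries always stays within about 1 SD of their mean, so it says nothing about stability. TMM, DESeq2 size factors, totals without mitochondrial or neutrophil genes and scaling to microglia markers moved none of the 10 levels by more than 1 SD. The sizes from TMM, DESeq2 and the microglia markers were first rescaled to the same geometric mean as the totals. That holds the mean levels near their first values, so this result says little about stability. Adjusted for GC content and transcript length, the median log2 ratio of the 10 genes went from −0.82 to −0.10, the genes over 2-fold apart from 5 to 1, and the ratios of Tyro3, Stab1 and Elmo1 changed sign, to 0.24, 0.013 and 0.42. For the pathway genes this adjustment, added after seeing the data, took those over 2-fold lower from 27 to 12 and those higher from 5 to 9. With a fold of 3, 2 genes were apart. Without division by length, the median level of the 10 genes was 169 CPM in place of 52.2 p.m. per length. By coding length, the ratio of Mertk to Axl went from 9.35 to 7.20 and that of Pros1 to Gas6 from 1.06 to 1.70. With the same lengths, the ratio of Stab1 to Msr1 reversed to 0.892. The share of the TAM ligands went from 65.9% to 55.9% by coding length, or 48.7% without length. These length settings change the divisor by construction. Of all counted genes, 25.9% were more than 2-fold lower in library 2 and 5.74% higher. With the GC and length adjustment these shares were 12.7% and 9.70%, and with TMM library sizes 20.1% and 8.32%. The adjustment sets the median log2 ratio of counted genes from −0.26 to 0, so a shift in this direction follows by construction. The cause of any further change was not tested.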
